A study of Mus musculus with 30 samples.

Results

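Thy1 and 9 genes of the amyloid precursor protein (APP), tau and secretase pathways were followed here: App, Aplp1, Mapt, Bace1, Adam10, Psen2, Psenen, Ncstn and Aph1a. A probe was included when its transcript accession belonged to 1 of these 10 symbols in RefSeq. This gave 14 probes out of the 55681 on the array, and 10 genes out of 21368 with a symbol. Each probe was kept apart, because several genes had more than 1. The rule itself uses no measured value.

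RNA was measured on single-colour microarrays in the hippocampus and in the rest of the brain of 15 mice, giving 30 arrays. The 3xTgAD mice (2 females and 3 males) carry human APP with the Swedish mutation and mutant human tau, together with a knock-in allele. The 3xTgAD-BKO mice, labelled JHT_3xTgAD (2 females and 3 males), carry the same alleles and also the JHT deletion of the immunoglobulin heavy chain joining segments, so they lack functional B cells. WT mice (3 females) carry neither, and JHT mice (2 females) carry only the JHT deletion. All were 15 to 20 months old, on the C57BL/6j background by their labels. The paper calls the transgenic line congenic, but its stock names for the transgenic and JHT lines also include another strain. Whether the genotype groups differ in strain background was not tested. Every WT and JHT mouse was female, so the main comparison of transgenic with non-transgenic mice was made in females, and wherever transgenic males are set against non-transgenic females, sex differs as well. Mice were perfused with saline before RNA was taken. Hippocampal and brain samples that carry the same number in their labels are read here as 1 mouse.

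In 3xTgAD mice the APP and tau transgenes are driven by regulatory elements of the mouse Thy1.2 gene, which restrict expression largely to neurons. Thy1 itself encodes a surface glycoprotein that is abundant on neurons and on T cells. APP is cut either by alpha secretase, of which Adam10 is the main neuronal form, or by beta secretase, Bace1, followed by gamma secretase, which releases amyloid beta. Gamma secretase holds a presenilin as the catalytic subunit with nicastrin (Ncstn), Aph1 and the presenilin enhancer (Psenen). The mouse App and Mapt probes were designed on mouse transcripts. Whether they also bind RNA of the human transgenes, and whether the Thy1 probe lies in sequence that the transgenes carry, cannot be read from the files used here.

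Values are log2 signals after quantile normalization over the 30 arrays, and a difference of 1 is a doubling. A probe was called changed when its limma p-value, adjusted over all 55681 probes by the Benjamini-Hochberg method, was below 0.05. Of the 14 probes, all except Ncstn were well above background on all 30 arrays, Ncstn was above background on 11 of 15 arrays in each tissue, and none was saturated. The 75th percentile of raw signal ran from 454 to 824 in hippocampus and from 841 to 1636 in brain. Arrays lay on 4 slides. WT and JHT females shared a slide with no transgenic female, so in females transgene and slide cannot be told apart, and the only transgenic mice on their slides were 3xTgAD-BKO males. The hippocampal array of 3xTgAD-BKO male mouse 0 had 432 flagged spots, against 102 to 160 on the other 29 arrays, and the highest 75th percentile of the hippocampal arrays. The brain array of the same mouse lay on a slide with hippocampal arrays and was the highest or lowest of the 15 brain arrays for 8 of the 14 probes. Of 4 markers of hippocampal neurons, 3 were higher in hippocampus, with a median difference of 1.88.

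Thy1 rose with the transgenes in both tissues, and it was the only one of the 10 genes to pass the test in that comparison. In hippocampus the WT females read 16.99, 17.02 and 17.06, and the JHT females 16.88 and 16.85. The 3xTgAD females read 18.01 and 17.95, and the 3xTgAD-BKO females 18.08 and 18.28. The 3xTgAD males read 18.07, 18.13 and 18.08, and the 3xTgAD-BKO males 18.28, 17.97 and 17.97. All 10 transgenic arrays therefore lay above all 5 non-transgenic arrays. Equal readings on several arrays arise because quantile normalization gives the same value to probes of equal rank. Thy1 was among the brightest probes, at ranks 5 to 25 on transgenic and 136 to 190 on non-transgenic hippocampal arrays. In brain its ranks ran from 46 to 85 and from 126 to 194. The sizes of its differences therefore depend on how the brightest probes are scaled.

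**Figure D1:**
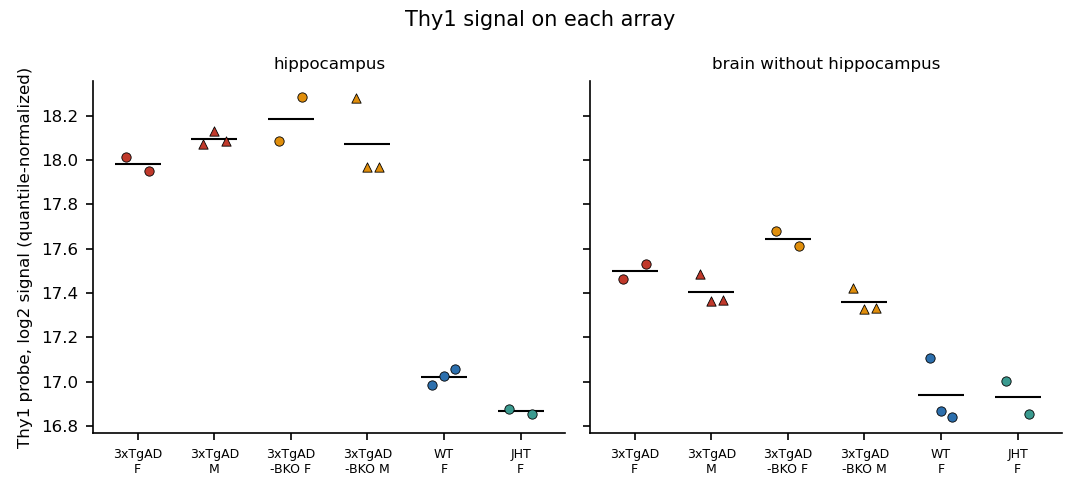
Log2 signal of the Thy1 probe after quantile normalization (vertical axis) on each array by genotype and sex (horizontal axis), for hippocampus and brain without hippocampus. Circles are females, triangles are males and lines are group means. In hippocampus the transgenic arrays sit between 17.95 and 18.28 and the non-transgenic arrays between 16.85 and 17.06.

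In the rest of the brain Thy1 read 17.11, 16.87 and 16.84 in WT females and 17.00 and 16.85 in JHT females. It read 17.46 and 17.53 in 3xTgAD females and 17.68 and 17.61 in 3xTgAD-BKO females. Male values were 17.49, 17.36 and 17.37 in 3xTgAD and 17.42, 17.33 and 17.33 in 3xTgAD-BKO. The groups again did not overlap, but the gap between the lowest transgenic array and the highest non-transgenic array was narrower than in hippocampus.

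In females the transgenic mean exceeded the non-transgenic mean by 1.14 in hippocampus (SE 0.08, 2.20-fold, 95% interval 1.95 to 2.49, adjusted p = 0.000124). In brain the difference was 0.64 (SE 0.07, 1.56-fold, interval 1.40 to 1.73, adjusted p = 0.0013). The 4 transgenic females lay above the 5 non-transgenic females in each tissue, and the 2-sided exact permutation p was 0.00794, the smallest that 126 splits allow. Of all probes, 0.478% were called in this comparison in hippocampus and 1.24% in brain. Thy1 was 1 of 14 member probes called in each. Probes for which all 10 transgenic arrays lay above the 5 non-transgenic arrays made up 0.268% of the array in hippocampus and 0.415% in brain, and Thy1 was the single member among them.

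The Thy1 difference was present with and without B cells. It was 0.96 between 3xTgAD and WT females and 1.32 between 3xTgAD-BKO and JHT females in hippocampus (adjusted p = 0.0029 and 0.0011). The corresponding brain values were 0.56 and 0.72 (adjusted p = 0.022 and 0.0103). The gap between these differences was 0.36 in hippocampus (SE 0.16, adjusted p = 0.405) and 0.16 in brain (SE 0.14, adjusted p = 0.811) and did not pass the test. In that comparison 0.181% of probes were called in hippocampus and 0.444% in brain, and 0 of 14 members. At an unadjusted p below 0.05 there were 5 and 0 members, against 12.4% and 8.32% of all probes.

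On the slide that held both kinds of hippocampal array, 3xTgAD-BKO males mouse 8 and mouse 9 exceeded the 5 non-transgenic females by 1.03 (adjusted p = 0.0106). In brain the same comparison had a single transgenic array and gave 0.40, a value with no spread of its own. With slide as a block the brain difference of 0.64 no longer passed (adjusted p = 0.101). Mean log2 level of 6 T cell markers ran from 6.22 to 7.61 in transgenic and from 6.31 to 7.06 in non-transgenic hippocampus, and 0 of 6 were called in either tissue. None of 10 neuronal markers was called either. Of 3 endothelial markers, 0 were called in hippocampus and 1 was called lower in brain, with median differences of -0.49 and -0.43. Their mean level ran from 10.61 to 11.22 in transgenic and from 11.11 to 11.75 in non-transgenic female hippocampus, and the part of these lists in the Thy1 result was not tested.

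Across tissues, Thy1 in non-transgenic females was 16.96 ± 0.09 (SD, n = 5) in hippocampus and 16.93 ± 0.12 in brain, a fitted difference, averaged over WT and JHT, of 0.01 (95% interval -0.14 to 0.16). In transgenic females hippocampus was higher by 0.51 (adjusted p = 4.00e-05) and in transgenic males by 0.70 (adjusted p = 4.13e-08). On the 75th percentile scale the 3 differences were 0.41, 1.17 and 1.30. The transgene difference itself was larger in hippocampus than in brain by 0.50 (SE 0.11), which did not pass the threshold over all probes (adjusted p = 0.0975). It passed after normexp background correction (0.55, adjusted p = 0.0126) and without 3xTgAD-BKO female mouse 6 (0.57, adjusted p = 0.0287). With mouse as a block, which pairs the tissues of a mouse, the adjusted p was 0.342. In this comparison 0.0934% of probes were called, and 0 of 14 members by limma, with 1 at an unadjusted p below 0.05, against 5.84% of all probes.

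The order of Thy1 levels in hippocampus was 3xTgAD-BKO females (18.18), 3xTgAD males (18.10), 3xTgAD-BKO males (18.07) and 3xTgAD females (17.98), then WT (17.02) and JHT (16.86). In brain it was 3xTgAD-BKO females (17.65), 3xTgAD females (17.50), 3xTgAD males (17.41) and 3xTgAD-BKO males (17.36), then WT (16.94) and JHT (16.93). Transgenic neighbours in these orders differed by no more than 0.15 and none of the tested contrasts within the transgenic mice passed.

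App, the gene of the amyloid precursor, did not pass in either tissue. In hippocampus it read 16.41, 16.47 and 16.32 in WT and 16.37 and 16.34 in JHT females. The 3xTgAD females read 16.46 and 16.48 and the 3xTgAD-BKO females 16.30 and 16.17. The males read 16.25, 16.35 and 16.33 in 3xTgAD and 16.35, 16.60 and 16.41 in 3xTgAD-BKO. Transgenic and non-transgenic arrays overlapped, and the female difference was -0.02 (95% interval -0.18 to 0.14, exact permutation p = 0.714).

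In brain App read 16.50, 16.79 and 16.83 in WT, 16.76 and 16.70 in JHT, 16.81 and 16.64 in 3xTgAD and 16.81 and 16.89 in 3xTgAD-BKO females. The males read 16.64, 16.66 and 16.74 in 3xTgAD and 16.35, 16.63 and 16.52 in 3xTgAD-BKO, the lowest of these being mouse 0. The female difference was 0.07 (interval -0.12 to 0.26, exact permutation p = 0.444). Both intervals leave out a change of the size seen for Thy1 in the same tissue. Aplp1, an APP family member without the amyloid beta sequence, averaged 16.41 ± 0.35 in transgenic females (n = 4) and 16.28 ± 0.22 in non-transgenic females (n = 5) in hippocampus. In brain these means were 16.08 and 16.09, and the arrays overlapped in both tissues.

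**Figure D2:**
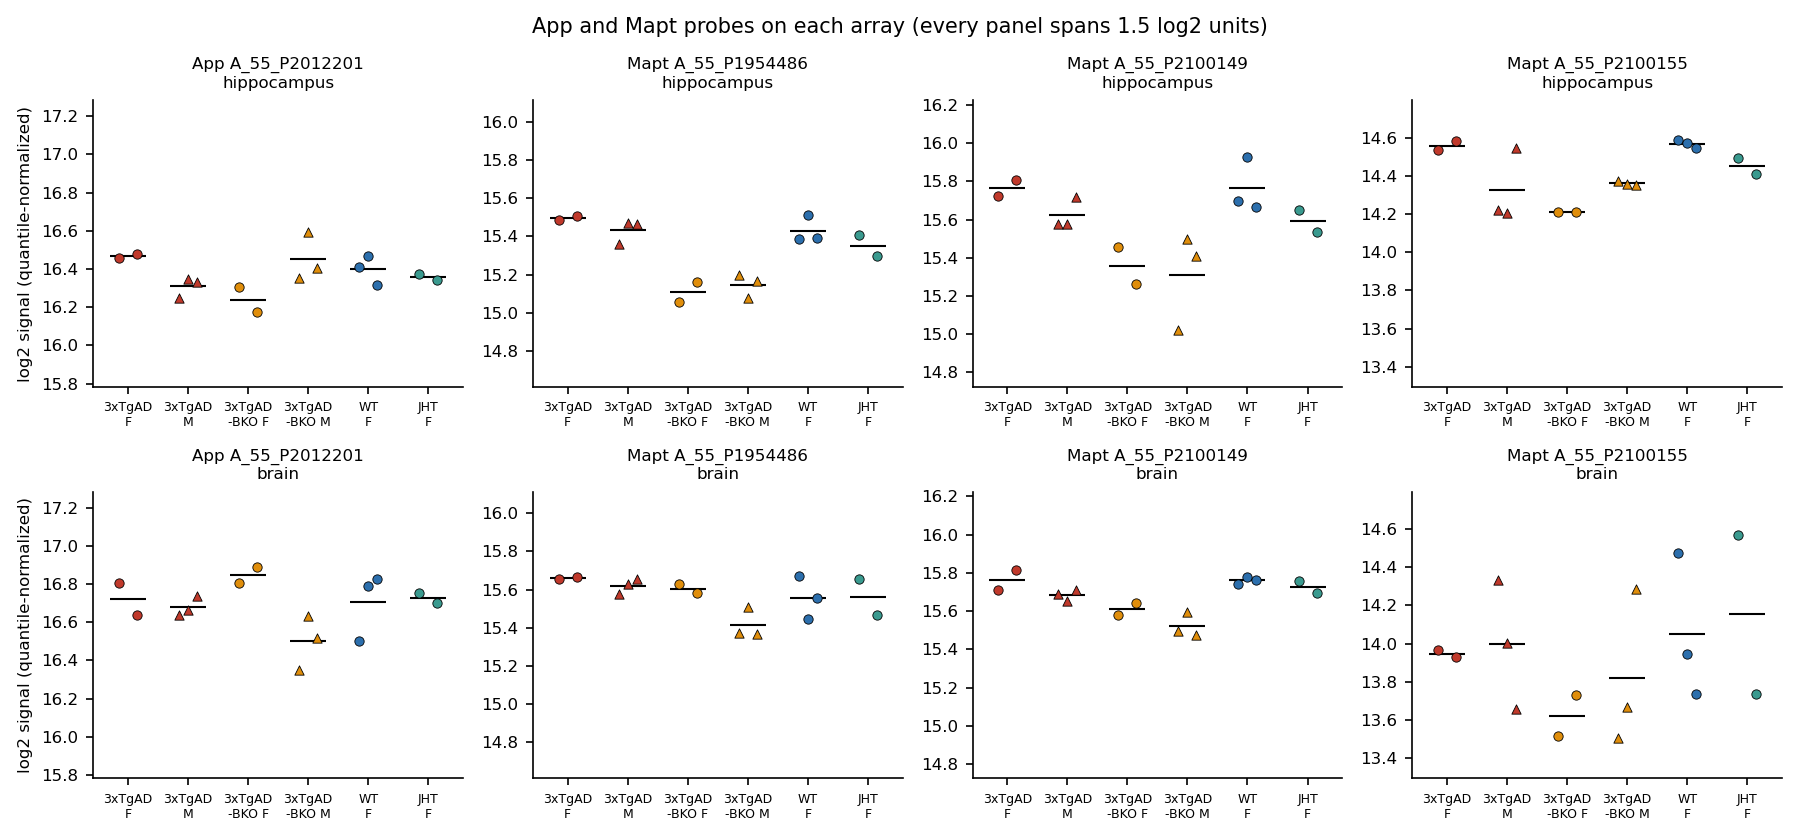
Log2 signal of the App probe and of the 3 Mapt probes after quantile normalization (vertical axes) on each array by genotype and sex (horizontal axes), in both tissues. Circles are females, triangles are males and lines are group means. Transgenic and non-transgenic arrays overlap for App and for each Mapt probe.

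Mapt, which encodes the microtubule-binding protein tau, was read by 3 probes, A_55_P1954486, A_55_P2100149 and A_55_P2100155. In hippocampus the transgenic females averaged 15.30 ± 0.23, 15.56 ± 0.25 and 14.38 ± 0.20 on them (n = 4). The non-transgenic females averaged 15.40 ± 0.08, 15.70 ± 0.14 and 14.52 ± 0.07 (n = 5). All 3 transgenic means were thus lower by less than the larger of the SDs. These means pool 3xTgAD with 3xTgAD-BKO, which were apart on A_55_P1954486. Over both sexes that probe averaged 15.46 in 3xTgAD and 15.13 in 3xTgAD-BKO, against 15.43 in WT and 15.35 in JHT. None passed, with exact permutation p values of 0.381, 0.349 and 0.230 in hippocampus and 0.246, 0.254 and 0.238 in brain.

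Among secretase genes no probe was called with the transgenes. Adam10, the alpha secretase, averaged 12.43 in transgenic and 12.58 in non-transgenic female hippocampus, and 12.57 and 12.62 in brain. Bace1, the beta secretase, averaged 12.98 and 12.86 in hippocampus and 12.81 and 12.68 in brain. Psen2, a presenilin gene, averaged 11.31 and 11.31 in hippocampus and 11.39 and 11.28 in brain. Psenen averaged 13.46 and 13.55 in hippocampus on probe A_55_P1980302 and 13.80 and 13.81 in brain. On the other Psenen probe, A_55_P1987770, the transgenic females ran from 13.47 to 13.58 in hippocampus and the non-transgenic females from 13.60 to 13.83. Of all probes, 2.79% lay lower without overlap in this split of 4 against 5 females, and this was 1 member among 14. The transgenic males reached 14.03 and overlapped the non-transgenic females. After adjustment that probe passed only with slide as a block (-0.66, adjusted p = 0.0066), a fit in which the hippocampal array of 3xTgAD-BKO male mouse 0 (14.03) links the slides together with the other 3xTgAD-BKO males. Apart from Thy1 and Ncstn, the widest difference of any of the 14 probes was 0.18 in size in hippocampus and 0.32 in brain. The smallest adjusted p among the 13 probes apart from Thy1 was 0.785 in hippocampus and 0.422 in brain, and 0 and 1 of them had an unadjusted p below 0.05, against 7.60% and 11.4% of all probes.

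**Figure D3:**
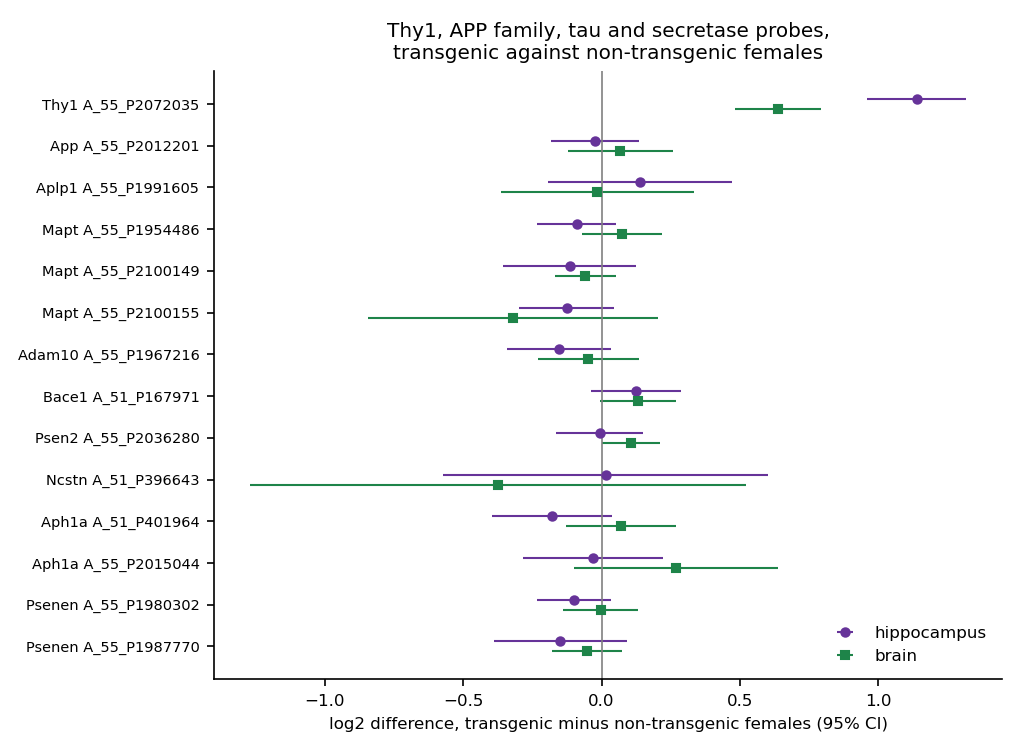
Transgenic minus non-transgenic difference in females (log2, horizontal axis, bars are 95% intervals) for each of the 14 probes (vertical axis) in hippocampus and brain. Thy1 lies at 1.14 and 0.64, and the other probes lie around 0.

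The median difference of the 14 probes was -0.06 in hippocampus and 0.03 in brain, and over all probes it was -0.01 and 0.00. Of 28 further genes of APP, tau and secretase biology with a probe, 0 were called with the transgenes in either tissue, and their medians were 0.02 and 0.05.

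B-cell deficiency in 3xTgAD females was compared on 1 slide per tissue, with 2 mice against 2. None of the 14 probes was called by limma, against 0.37% of all probes in hippocampus and 1.12% in brain. At an unadjusted p below 0.05 there were 7 in hippocampus and 1 in brain, where 14.7% and 13.1% of all probes were. The methods' t-test, the test named for the study, gave 4 and 0, against 13.05% and 19.2% of all probes. After adjustment that test also called 0 in each tissue. The probes with low unadjusted p in hippocampus included all 3 Mapt probes.

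The Mapt probe A_55_P1954486 separated the 2 genotypes in hippocampus when both sexes were taken. It read 15.48 and 15.51 in 3xTgAD females and 15.36, 15.47 and 15.47 in 3xTgAD males. It read 15.16 and 15.05 in 3xTgAD-BKO females and 15.20, 15.07 and 15.17 in 3xTgAD-BKO males. WT females read 15.39, 15.51 and 15.39, and JHT females 15.41 and 15.30. The 5 3xTgAD-BKO arrays were therefore below all 10 other hippocampal arrays, as was the case for 0.108% of all probes and for 2 of the 14 members, this probe and Mapt A_55_P2100149.

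Adjusted for sex, the 3xTgAD-BKO mean of this probe was lower by 0.33 (log2 difference -0.33, SE 0.06, 95% interval -0.46 to -0.19, adjusted p = 0.0403). It was the only one of 14 probes called in that fit, in which 0.736% of all probes were called in hippocampus and 1.73% in brain. The call rested on a narrow margin. Of 15 alternatives it held in 2, without 3xTgAD-BKO male mouse 0 and with an intensity trend (limma adjusted p = 0.0271 and 0.00961). It was lost on leaving out any of the mice except 3xTgAD-BKO male mouse 0, 9 of 10 (adjusted p up to 0.12), and it was lost on scaling to the 75th percentile (0.378), with normexp correction (0.219), with slide as a block (0.0824) and within 1 slide (0.272), while the difference stayed between -0.35 and -0.26. In brain the 2 genotypes overlapped on this probe.

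Probe A_55_P2100149 of Mapt ran from 15.02 to 15.50 in 3xTgAD-BKO and from 15.57 to 15.81 in 3xTgAD hippocampus, and from 15.48 to 15.64 against 15.65 to 15.81 in brain. It did not pass in either tissue, but was called over both sexes with slide as a block in hippocampus (-0.49, adjusted p = 0.0446) and with an intensity trend in brain (-0.16, adjusted p = 0.039). Probes without overlap between the 5 3xTgAD-BKO and the 5 3xTgAD arrays made up 2.04% of the array in hippocampus and 4.06% in brain. Among the members these were both Mapt probes in hippocampus and A_55_P2100149 in brain, all lower in 3xTgAD-BKO. The third Mapt probe, A_55_P2100155, differed by -0.35 in females and 0.04 in males in hippocampus. In tissue RNA, fewer cells of a type and less RNA per cell cannot be told apart. The mean of the 10 neuronal markers ran from 14.83 to 15.13 in 3xTgAD-BKO and from 15.11 to 15.21 in 3xTgAD hippocampus. That of 4 markers of hippocampal neurons ran from 10.91 to 11.71 against 11.50 to 11.80. The mean of 3 endothelial markers was higher in 3xTgAD-BKO without overlap, from 11.20 to 11.71 against 10.61 to 10.96 in hippocampus and from 11.03 to 11.47 against 10.60 to 10.86 in brain. The mean of 6 T cell markers ran from 6.22 to 7.61 against 6.28 to 6.66 in hippocampus, and from 6.78 to 7.81 against 6.26 to 6.66 in brain, where it did not overlap. That of 4 choroid plexus markers overlapped in both tissues (8.18 to 14.12 against 9.27 to 14.26 in hippocampus), with a median difference of 1.19 in females in hippocampus. In females limma called none of the markers of these 5 lists (2 of 10 neuronal, 2 of 4 hippocampal, 2 of 3 endothelial, 1 of 6 T cell and 0 of 4 choroid plexus markers had an unadjusted p below 0.05 in hippocampus), and the part of these lists in the Mapt values was not tested.

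**Figure D4:**
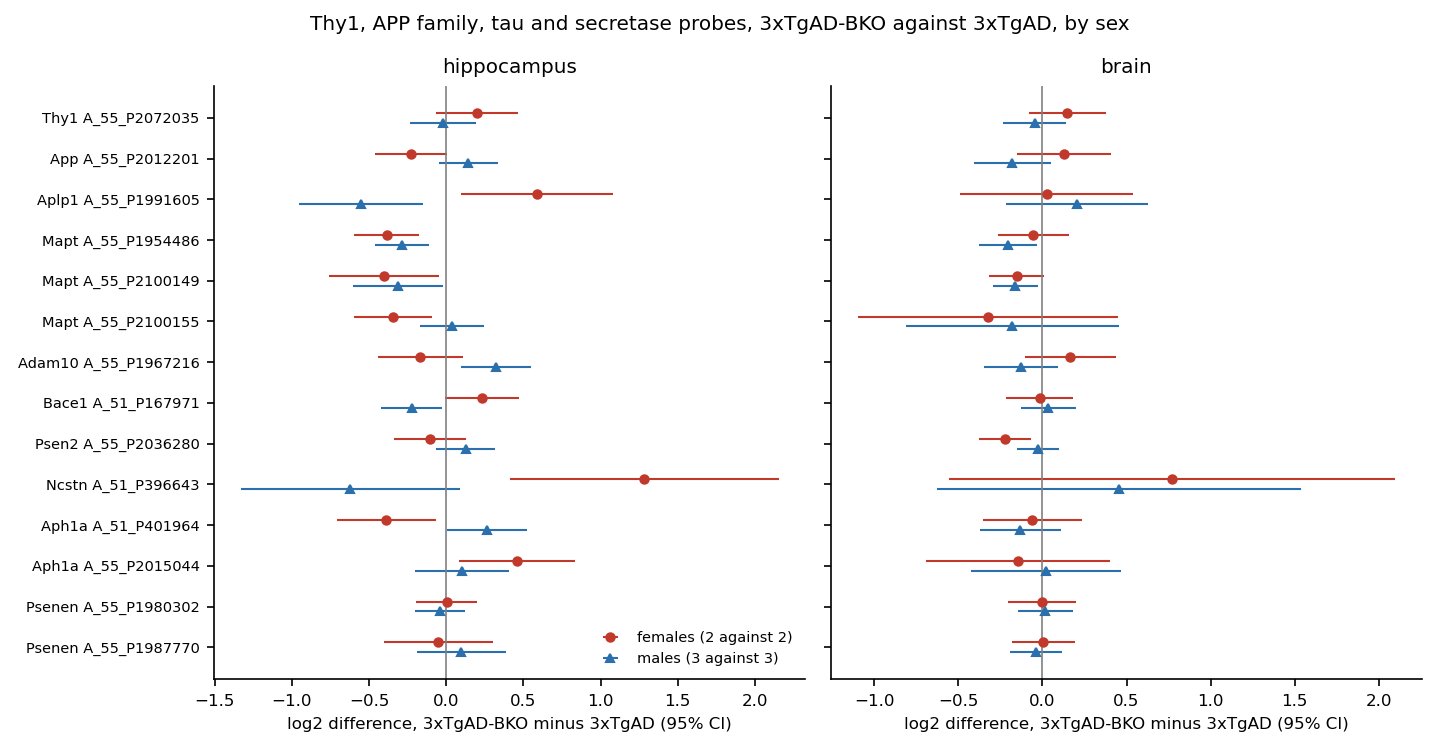
3xTgAD-BKO minus 3xTgAD difference (log2, horizontal axis) for each of the 14 probes (vertical axis) in females and in males, by tissue. Points are estimates and bars are 95% intervals. Mapt probe A_55_P1954486 lies at -0.39 in females and -0.29 in males in hippocampus, while Aplp1 lies at 0.59 and -0.55.

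Several other genes had differences of opposite sign between 3xTgAD-BKO and 3xTgAD in females and males, none of which passed. Aplp1 differed by 0.59 in female (adjusted p = 0.266) and -0.55 in male hippocampus. Adam10 differed by -0.17 and 0.32, and Bace1 by 0.23 and -0.22. The sex difference of these values was not tested. Thy1 differed by 0.20 in females and -0.02 in males in hippocampus, and by 0.15 and -0.05 in brain.

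Ncstn, the gamma secretase subunit that receives substrates, was close to the detection limit. It was not well above background on either hippocampal array of the 3xTgAD females (4.44 and 4.62) and was above it on both of the 3xTgAD-BKO females (5.52 and 6.11). On the measured signals the 3xTgAD-BKO females were 2.44-fold higher, a difference that did not pass the test (adjusted p = 0.2). Because neither 3xTgAD female array was above background, this ratio is not a bound on the true difference. In males the difference was -0.62 in hippocampus. The 2 Aph1a probes also opposed each other in 3xTgAD-BKO females, at -0.39 for A_51_P401964 and 0.46 for A_55_P2015044 (adjusted p = 0.259 for each).

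Without transgenes, JHT and WT females were compared on 1 slide per tissue. In this contrast 0.122% of probes were called in hippocampus and 0.223% in brain, and 0 of 14 members were called by limma, with 1 and 0 at an unadjusted p below 0.05, against 7.60% and 6.64% of all probes. The methods' t-test gave 3 and 0, against 8.58% and 6.26%. Thy1 differed by -0.16 in hippocampus and -0.01 in brain. Apart from Thy1 and Ncstn, the widest difference was 0.32 in size in hippocampus and 0.15 in brain. The mean of 4 choroid plexus markers ran from 7.53 to 8.77 in WT and from 13.34 to 14.19 in JHT hippocampus, with a median difference of 6.05 and 0 of 4 called (4 at an unadjusted p below 0.05), and its part was not tested. In brain these means overlapped.

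Sex was compared in the transgenic mice, females minus males. In this contrast 0.0485% of probes were called in hippocampus and 0.208% in brain, and 0 of 14 members. At an unadjusted p below 0.05 there were 1 and 2, against 5.59% and 8.62% of all probes. Thy1 in brain was 17.57 ± 0.09 (SD, n = 4) in females and 17.38 ± 0.06 (n = 6) in males, a difference of 0.19 that did not pass (adjusted p = 0.487). In hippocampus the means were 18.08 in both sexes.

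Between hippocampus and the rest of the brain 9 of 14 probes were called, 4 higher and 5 lower in hippocampus. Over all probes 45.9% were called, 23.7% higher and 22.2% lower. The median difference of the 14 probes was -0.01, and over all probes 0.01.

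**Figure D5:**
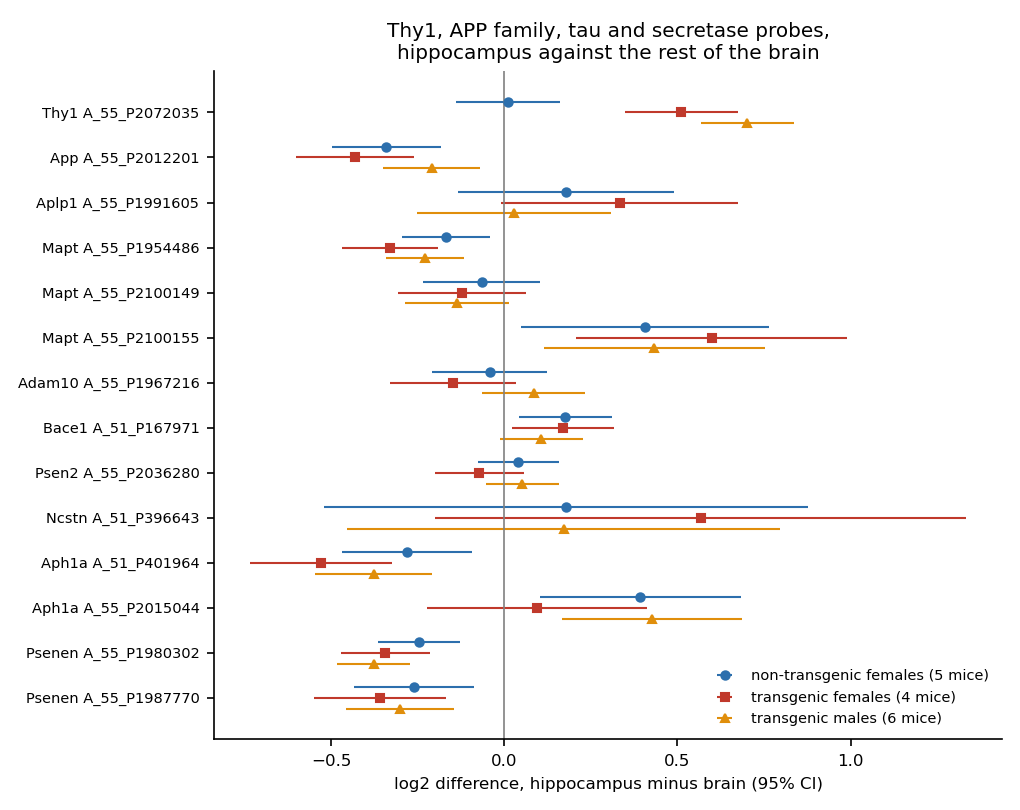
Hippocampus minus rest-of-brain difference (log2, horizontal axis, bars are 95% intervals) for each of the 14 probes (vertical axis), in non-transgenic females, transgenic females and transgenic males. Thy1 lies at 0.01, 0.51 and 0.70 in these groups and App at -0.34, -0.43 and -0.21, and the Aph1a and Mapt probes lie on both sides of 0.

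Thy1 was higher in hippocampus by 0.41 (SE 0.04, adjusted p = 5.60e-08) over all groups, while the non-transgenic females alone gave 0.01. On the 75th percentile scale these values were 0.95 and 0.41. Bace1 was higher by 0.15 (SE 0.04). App was lower in hippocampus by 0.33 (log2 difference -0.33, SE 0.04, adjusted p = 2.12e-06), averaging 16.37 there and 16.68 in brain, and by group the differences were -0.34 in non-transgenic females, -0.43 in transgenic females and -0.21 in transgenic males. After scaling to the 75th percentile, which brought the median difference of all probes from 0.01 to 0.37 and that of probes above background on every array to 0.09, the App difference was -0.01, and with the deposited scores, which are Z scores within each array, it was 0.04 SD.

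Psenen was lower in hippocampus on both probes. Probe A_55_P1980302 ran from 13.39 to 13.61 in hippocampus and from 13.71 to 13.95 in brain, with no overlap, as did 3.85% of all probes in that direction. It differed by -0.32 (adjusted p = 5.54e-08). Probe A_55_P1987770 differed by -0.31 (adjusted p = 1.69e-05). Adam10, Psen2, Aplp1, Ncstn and the Mapt probe A_55_P2100149 did not pass.

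Probes of the same gene disagreed between tissues. Aph1a probe A_51_P401964 was lower in hippocampus by 0.40 (log2 difference -0.40), averaging 11.20 there and 11.59 in brain, while A_55_P2015044 was higher by 0.30, and the 2 accessions name different Aph1a transcripts. Mapt probe A_55_P1954486 differed by -0.24, with -0.07 on the 75th percentile scale and 0.02 with the deposited scores. Probe A_55_P2100155 differed by 0.48. Across the 15 arrays of a tissue, a description with no test, the Aph1a probes correlated at r = -0.43 in hippocampus and 0.22 in brain. The Mapt probes A_55_P1954486 and A_55_P2100149 correlated at 0.74 and 0.60. With A_55_P2100155 these probes correlated at 0.61 and 0.63 in hippocampus and at 0.23 and 0.29 in brain. The Psenen probes correlated at 0.24 in hippocampus and 0.81 in brain. Tissue and slide overlapped through a single brain array, and with slide as a block 1 of 14 probes stayed called, Psenen A_55_P1987770 (-0.55, adjusted p = 0.00301).

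Among the 28 other pathway genes, 9 were called higher and 13 lower in hippocampus, with a median of -0.12, against 23.7% and 22.2% of all probes. Mme, which encodes the amyloid-degrading enzyme neprilysin, was lower in hippocampus. It ran from 3.49 to 5.72 there, above background on 7 of 15 arrays, and from 6.57 to 7.31 in brain, above background on all 15, so the measured difference of -2.41 includes hippocampal signals not above background. Map1b, a microtubule-associated protein gene, was higher by 1.03 and Rtn3, a reticulon that binds Bace1, by 0.72. Gsk3b, a tau kinase gene, was higher by 0.68. Adam9 differed by -0.68, with the hippocampal array of mouse 0 at 9.55 and the other 14 between 12.12 and 12.56, and by -0.52 without that array (adjusted p = 1.07e-07), a fit added after seeing the data.

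Map1b was the single pathway gene of 28 called between 3xTgAD-BKO and 3xTgAD females, in hippocampus, where 0.37% of all probes were called. When only the groups compared were fitted, no probe was called there. Map1b probe A_52_P360330 was higher by 2.13 (SE 0.31, 4.39-fold, adjusted p = 0.0176), and by 1.62 in brain (adjusted p = 0.122). The 3xTgAD-BKO arrays of both sexes ran from 13.47 to 14.52 in hippocampus against 11.63 to 12.20 on all other arrays, and from 12.19 to 13.91 against 10.73 to 11.20 in brain. The second Map1b probe, A_55_P1964193, differed by -0.47 and -0.71 in females, did not pass, and overlapped between the groups in both tissues.

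Patterns like that of Thy1 were ranked by Pearson correlation over the 30 arrays, centred within tissue, among the 21374 probes with a symbol that were above background on at least 8 arrays. The 5 closest genes were Rxra (r = 0.94), a retinoid nuclear receptor gene, Gdpd3 (0.93), Atp6v1c2 (0.89), Angptl7 (0.88) and Sp100 (0.87). The 5 most opposite were Fam205a2 (-0.94), Gm3893 (-0.93), Gm1987 (-0.92), Cmpk2 (-0.91) and Mboat2 (-0.91). Arrays of a mouse share their source, so these are descriptions. The part of strain background in these patterns was not tested. Angptl7 was above background on 0 of 5 non-transgenic arrays in hippocampus and 1 of 5 in brain, so it passed that filter mainly on transgenic arrays. Gdpd3 was above background on 1 of 5 and 3 of 5 of these arrays, and on all 4 transgenic female arrays of each tissue. Among the other member probes r with Thy1 ran from -0.48 for Mapt A_55_P2100149 to 0.50 for Bace1.

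Chromosomal neighbours were read as values, with 3 genes with a probe taken on each side of Thy1, App and Mapt in the RefSeq annotation. None of the 6 neighbours of any of these genes was called with the transgenes in either tissue. Around Thy1 (Oaf, Trim29, Nectin1, Usp2, C1qtnf5 and Rnf26) the largest difference was 0.28 in hippocampus and 0.18 in brain. It was 0.49 and 0.36 around App and 0.44 and 0.68 around Mapt, where Myl4 differed by -0.44 and -0.50 (adjusted p = 0.0909 and 0.116).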

How the data were processed

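Hippocampus and remaining brain of 15 mice were hybridised as Cy3-labelled cRNA from total RNA to single-colour Agilent arrays. The deposited intensity values are processed signals of the scanner software, background-subtracted by the authors' scanner run. A deposited table of score values, used as an alternative only, matched the Z score of log10 processed signal within each array (median absolute difference at most 0.00254), so its differences are in SD units of an array. Processed signals were log2-transformed, control spots were dropped, spots of a probe were averaged, and the 30 arrays were quantile-normalized (R 4.3.3, limma 3.58.1). Probes were named through RefSeq accessions. Groups were fitted with limma (lmFit, contrasts.fit, eBayes) over the 15 arrays of a tissue, or over all 30 for tissue contrasts, with Benjamini-Hochberg adjustment over 55681 probes and a threshold of 0.05. Exact permutation tests were 2-sided. The script was tested on simulated data.

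The members, the pathway and marker lists and the tests were chosen with earlier results of these data known. Named genes were all member probes, at most 5 called pathway genes per comparison, the 5 genes most and 5 least correlated with Thy1, and 3 neighbours on each side of Thy1, App and Mapt. The mouse number gives the pairing of tissues: over 25407 probes the deviations of the 2 tissues of a mouse correlated with a median r of 0.09 (-0.18 to 0.24), and 7 of 15 pairs exceeded 0.1. p-values measure the spread between mice, and the small number of arrays limits precision. Alternatives were other scalings (75th percentile, normexp with an offset of 50, the deposited scores), an expression filter, the brightest probe per gene, an intensity trend, slide and mouse blocks, the methods' t-test and leaving out each mouse. One item of the study is not reported here.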

Additional observations from a re-analysis of the deposited data

Results flagged for a closer look

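Among 84 groups of 4 to 6 arrays examined over the 14 probes, 4 held an array far from the others of its group. The nominal chance rate of about 1 in 20 was not checked here, and these groups pool genotypes and share arrays. For Aph1a probe A_55_P2015044 the brain array of 3xTgAD female mouse 1 read 7.53 and the nearest other transgenic female 7.25, a gap of 0.891 of the group's range. For Ncstn the brain array of WT female mouse 11 read 3.85 and the nearest other non-transgenic female 5.08, a gap of 0.740 of the range. For Psen2 the hippocampal array of 3xTgAD female mouse 2 read 11.45 and the nearest other transgenic female 11.28, a gap of 0.860 of the range. For Psenen probe A_55_P1987770 the hippocampal array of 3xTgAD-BKO male mouse 0 read 14.03 and the nearest other transgenic male 13.62, a gap of 0.754 of the range.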

How the results depend on the processing

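Thy1 rose with the transgenes in hippocampus under all 24 alternatives (0.83 to 1.32 on the log2 scale, and 0.34 SD units of an array with the deposited scores), all passing. In brain it kept its direction under all 24 (0.40 to 0.72 on the log2 scale) and did not pass with the deposited scores (0.12 SD units) or slide as a block (0.64). Within 1 slide it was 0.40, also not passing, but with a single transgenic array, assumed to vary like the other groups, this says nothing about stability. With the mouse as a replicate block, which pairs the tissues, 19 probes in place of 52 differed in the transgene difference between tissues, and no call of a member changed. Slides, the few mice per group and, for Ncstn, signal near background limit all of these values.

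Counts of called probes moved further. For the transgenes in hippocampus (266) they were 115 for 3xTgAD-BKO against JHT alone, 4780 with slide as a block, 542 over all 30 arrays, 118 within 1 slide and 58 by the methods' adjusted t-test (4470 unadjusted), and 183 to 594 on leaving out 1 mouse. Slide as a block called 2 members, the second being Psenen A_55_P1987770, for which the hippocampal array of 3xTgAD-BKO male mouse 0 read 14.03, and the unadjusted t-test called 4. In brain (688) they were 421 for 3xTgAD-BKO against JHT alone, 360 by 75th percentile scaling, 373 with the scores, 457 for the brightest probe, 1579 with slide as a block, 126 by the adjusted t-test (7891 unadjusted) and 518 to 1243 without 1 mouse. The members called there were 0 with the scores, slide block and 1 slide, and 3 by the unadjusted t-test.

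For B-cell deficiency in 3xTgAD females, hippocampus (206) gave 351 in males, 410 over both sexes, 136 for the brightest probe, 321 with slide as a block, 1034 over all 30 arrays, 0 for the groups compared alone (8746 at an unadjusted p below 0.05), 4 by the adjusted t-test (7265 unadjusted) and 321 to 788 without 1 mouse. Members called were 1 over both sexes, 1 over all 30 arrays, and 4 by the unadjusted t-test. Brain (626) gave 966 over both sexes, 334 by 75th percentile, 393 with the scores, 411 for the brightest probe, 1605 with slide as a block, 0 for the groups alone (10071 unadjusted), 0 by the adjusted t-test (10685 unadjusted) and 704 to 1185 without 1 mouse.

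For JHT against WT, hippocampus (68) gave 19 by 75th percentile and by normexp, 31 above background, 34 for the brightest probe, 182 over all 30 arrays, 0 for the groups alone (6056 unadjusted), 0 by the adjusted t-test (4777 unadjusted, 3 members) and 40 to 519 without 1 mouse. Brain (124) gave 55, 47 and 71 by 75th percentile, normexp and scores, 64 above background, 59 for the brightest probe, 63 for the groups alone, 0 by the adjusted t-test (3483 unadjusted) and 117 to 781 without 1 mouse.

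For sex, hippocampus (27) gave 12 by normexp, 16 above background, 14 for the brightest probe and for the groups alone, 4236 with slide as a block (1 member), 12 by the adjusted t-test (1341 unadjusted, 1 member) and 23 to 306 without 1 mouse. Brain (116) gave 20, 31 and 46 by 75th percentile, normexp and scores, 58 above background, 51 for the brightest probe, 796 with slide as a block, 15 by the adjusted t-test (2740 unadjusted, 2 members) and 84 to 733 without 1 mouse.

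For the transgene difference by B-cell background, hippocampus (101) gave 60, 59 and 63 by 75th percentile, normexp and scores, 48 for the brightest probe, 158 with slide as a block, 602 over all 30 arrays and 75 to 714 without 1 mouse. Brain (247) gave 98, 123 and 133 by the same scalings, 139 for the brightest probe, 401 with slide as a block and 212 to 820 without 1 mouse. For the transgene difference between tissues (52) the counts were 7, 11 and 17 by these scalings, 25 above background, 27 for the brightest probe and 44 to 423 without 1 mouse, with 1 member (Thy1) called by normexp, by the intensity trend and without 3xTgAD-BKO female mouse 6, and 0 to 1 over the mice left out.

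For hippocampus against brain (25566, 9 members) the brightest probe per gene called 5 members. Chosen after seeing the data, slide as a block left 8792 probes and 1 member and turned Aph1a A_55_P2015044 to -0.27, and the non-transgenic females alone called 16576. With the deposited scores App turned to 0.0424 and Mapt A_55_P1954486 to 0.0156. The cause was not tested. The share of called probes that were higher in hippocampus was 51.6% and became 75.4% by 75th percentile scaling. Other scalings moved the share of higher calls for JHT against WT in hippocampus from 77.9% to 57.9% (normexp) and in brain from 67.7% to 54.5% (75th percentile) and 51.1% (normexp), for sex in brain from 90.5% to 65% and 77.4%, for the transgene difference by B-cell background in hippocampus from 46.5% to 58.3%, and for the transgene difference between tissues from 30.8% to 57.1%, 54.5% and 41.2% (scores).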
